A study of Homo sapiens with 21 samples.

Results

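The genes described here are 9 genes of fatty acid oxidation and lipid droplets, taken as a list of names: CPT1A, CPT2, ACADM, ACADVL, HADHA, HADHB, ACAA2, ETFDH and PLIN2. They were found by gene symbol among 65065 annotated genes, all 9 passed the filter on low counts, and 19556 genes were tested in all. The cells were HCT-116, an established line from a human colorectal carcinoma that grows as an epithelial sheet, kept per the labels in medium with serum depleted of exosomes. Extracellular vesicles (EVs, membrane particles that cells release) had been isolated from serum with the GlyExo-Capture method and added to the cells. Per the labels the serum came from patients with hepatocellular carcinoma (HCC) or from healthy people, and the titles write the sources as HCC+ and HCC-. Each source was given at 0.048, 0.24 and 1.2 mg/mL, and blank cells had 0 mg/mL. Polyadenylated RNA of 3 libraries in each of 7 groups, 21 in all, was sequenced. How long cells were exposed, how many donors gave serum and whether the 3 libraries are separate cultures is not stated by the labels, so p-values measure only the spread between these libraries, which may be technical. All cells are of 1 line, and in bulk RNA fewer cells that express a gene and less of its RNA per cell cannot be told apart.

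Fatty acids are burned in mitochondria after they are joined to coenzyme A and carried across the inner membrane as carnitine esters. CPT1A makes the carnitine ester at the outer membrane, the step that controls entry, and CPT2 turns it back inside. The acyl-CoA dehydrogenases ACADVL (very long chains) and ACADM (medium chains) start each round of shortening, HADHA and HADHB are the subunits of the trifunctional protein that carries long chains through the following steps, and ACAA2 is a thiolase that releases acetyl-CoA. ETFDH passes the electrons taken up by the dehydrogenases on to ubiquinone. PLIN2 coats lipid droplets, where cells keep fatty acids as triglyceride, and is a known target of the lipid-sensing nuclear receptors of the PPAR family.

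HADHA and HADHB lie head to head on chromosome 2. Both were called lower with either EV source at 1.2 mg/mL, though some alternatives below did not call them with HCC+ EVs. Their start regions are shown first. In RefSeq (GRCh38.p14) the window of 300 bases around the start of HADHA, 250 before it and 50 from it, is chr2:26244583-26244882 on the minus strand. That of HADHB is chr2:26244689-26244988 on the plus strand. The start sites are 307 bases apart and the windows share 194 bases, which stand in capitals in both, as reverse complements of each other.
HADHA: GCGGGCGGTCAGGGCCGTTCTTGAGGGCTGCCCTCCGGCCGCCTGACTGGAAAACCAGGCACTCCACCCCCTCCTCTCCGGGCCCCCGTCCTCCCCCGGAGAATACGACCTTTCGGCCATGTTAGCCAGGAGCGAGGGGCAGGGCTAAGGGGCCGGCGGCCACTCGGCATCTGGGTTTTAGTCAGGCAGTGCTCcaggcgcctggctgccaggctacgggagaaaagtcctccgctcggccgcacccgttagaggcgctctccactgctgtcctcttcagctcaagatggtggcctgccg
HADHB: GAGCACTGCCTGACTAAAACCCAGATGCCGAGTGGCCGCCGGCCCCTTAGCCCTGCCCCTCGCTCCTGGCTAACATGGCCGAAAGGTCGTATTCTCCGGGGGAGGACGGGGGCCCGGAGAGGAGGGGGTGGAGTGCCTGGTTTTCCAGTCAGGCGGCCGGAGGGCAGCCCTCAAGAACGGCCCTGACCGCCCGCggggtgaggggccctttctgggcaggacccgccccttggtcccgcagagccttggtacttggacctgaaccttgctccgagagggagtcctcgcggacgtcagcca
The windows of the carnitine palmitoyltransferases are shown because CPT2 had the lowest level relative to the blank of the 9 genes and CPT1A had no call in the fit of all 21 libraries with TMM scaling (trimmed mean of M-values), though some alternatives below called it. They are chr1:53196574-53196873 on the plus strand for CPT2 and chr11:68844228-68844527 on the minus strand for CPT1A. Capitals mark GGGCGG, the core of a GC box, on either strand: the CPT2 window has 4 and the CPT1A window 0. The windows of ACADM have 4, of HADHB and PLIN2 2 each, of HADHA 1, of ACAA2 0, and the pair of ACADVL windows 0 and 2. Of 35116 RefSeq promoter windows of this length 45% hold at least 1.
CPT2: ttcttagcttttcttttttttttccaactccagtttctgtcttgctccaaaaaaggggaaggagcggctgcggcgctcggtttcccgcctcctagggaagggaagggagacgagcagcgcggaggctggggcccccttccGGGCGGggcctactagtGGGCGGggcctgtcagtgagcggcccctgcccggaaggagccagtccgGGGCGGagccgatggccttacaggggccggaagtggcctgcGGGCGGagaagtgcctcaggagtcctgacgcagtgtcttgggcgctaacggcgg
CPT1A: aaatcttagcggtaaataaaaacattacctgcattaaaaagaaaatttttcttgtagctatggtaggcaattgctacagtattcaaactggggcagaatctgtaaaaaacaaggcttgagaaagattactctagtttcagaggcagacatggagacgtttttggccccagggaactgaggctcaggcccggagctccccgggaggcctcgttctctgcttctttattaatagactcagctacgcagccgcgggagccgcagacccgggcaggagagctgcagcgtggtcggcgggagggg
PLIN2 is shown as the droplet gene, and as the 1 gene of the 9 that passed as higher than the blank at 1.2 mg/mL, with HCC+ EVs. Its window is chr9:19127443-19127742 on the minus strand, and capitals mark its 1 match to CACGTG, the palindromic E-box, which 7.3% of windows hold.
PLIN2: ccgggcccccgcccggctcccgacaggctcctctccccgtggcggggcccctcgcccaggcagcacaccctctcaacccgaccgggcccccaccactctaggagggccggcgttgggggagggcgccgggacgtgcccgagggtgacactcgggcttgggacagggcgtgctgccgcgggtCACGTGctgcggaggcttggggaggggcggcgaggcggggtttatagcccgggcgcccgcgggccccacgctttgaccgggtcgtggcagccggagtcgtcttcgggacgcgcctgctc
Windows were found for 8 of the 9 genes, 9 windows in all. None of them holds AGGTCA, a short element bound by nuclear receptors, on either strand, against 13.8% of all windows. These matches describe letters in these windows only.

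The table lists the genes on GRCh38 as follows. CPT1A (ENSG00000110090) spans chr11:68754620-68844410 on the minus strand and CPT2 (ENSG00000157184) chr1:53196792-53214197 on the plus strand. ACADM (ENSG00000117054) spans chr1:75724347-75787575 on the plus strand and ACADVL (ENSG00000072778) chr17:7217125-7225266 on the plus strand. HADHA (ENSG00000084754) is at chr2:26190635-26244672 on the minus strand. Its span overlaps that of HADHB (ENSG00000138029) at chr2:26243170-26290465 on the plus strand. ACAA2 (ENSG00000167315) spans chr18:49782164-49813953 on the minus strand, ETFDH (ENSG00000171503) chr4:158672125-158709623 on the plus strand and PLIN2 (ENSG00000147872) chr9:19108375-19149290 on the minus strand.

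Per length, the genes covered a wide range of levels in blank cells. HADHA was the most abundant at 57.3 ± 2.77 CPM (counts scaled to library size) per kilobase of exon (SD, n = 3 for this and the following means), followed by ACADVL at 40.6 ± 3.65. CPT1A (24.3 ± 0.350) and HADHB (23.4 ± 1.72) came next, and their libraries overlapped. Below them were ACADM at 12.2 ± 1.01, PLIN2 at 7.85 ± 0.501, ETFDH at 5.61 ± 0.175, ACAA2 at 4.29 ± 0.501 and CPT2 at 1.77 ± 0.133. Apart from CPT1A and HADHB, neighbours in this order did not overlap between blank libraries. The exons merged over annotated transcripts add up to 10089 bases for CPT2, the longest of the 9. The lowest count of any of the 9 genes in a library was 431, for CPT2, and libraries held 31.22 to 64.01 M counts. Levels below are CPM scaled with TMM factors, and differences are log2 fold changes ± SE, fitted in edgeR (quasi-likelihood) to the 21 libraries together. The words rose and fell are kept for genes whose Benjamini-Hochberg adjusted p, taken over every tested gene, is below 0.05.

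**Figure D1:**
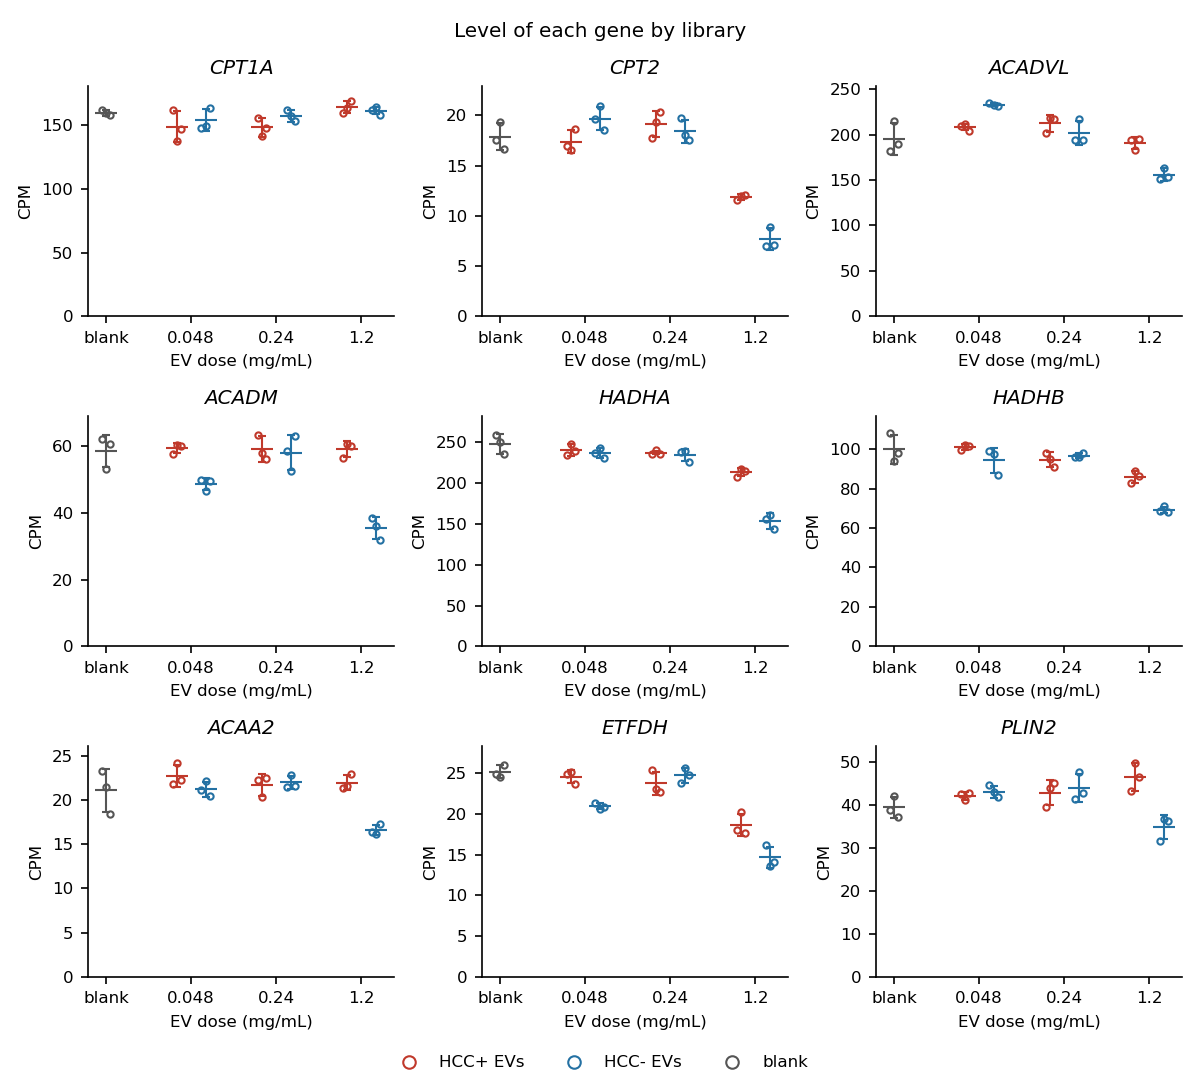
CPM (vertical axis, from 0) of each gene by EV dose in mg/mL, with 1 point per library and the mean ± SD of 3 libraries (HCC+ red, HCC- blue, blank gray). At 1.2 mg/mL the HCC- libraries lie below the HCC+ libraries for every gene shown but CPT1A, and CPT2 lies below the blank with both sources.

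At 1.2 mg/mL with HCC+ EVs, 4 of the 9 genes were lower than in the blank, 1 was higher and 4 did not pass. The 5 calls compare with 33.0% of all tested genes called in this comparison, 15.6% higher and 17.4% lower. CPT2 fell most, followed by ETFDH, HADHA and HADHB, and PLIN2 rose. The median of the 9 genes was -0.04, beside 0.01 for all tested genes.

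CPT2 had 11.6, 12.0 and 12.1 CPM in the 3 libraries with HCC+ EVs at 1.2 mg/mL, against 17.6, 19.3 and 16.7 CPM in the blank. All 3 treated libraries were lower than every blank library, at 66.5% of the blank mean (-0.59 ± 0.10, adjusted p = 2.43e-05). ETFDH had 18.1, 20.3 and 17.7 CPM with HCC+ EVs, against 25.0, 24.6 and 26.1 CPM in the blank, again with no overlap (-0.43 ± 0.08, adjusted p = 0.00014). HADHA had 207, 217 and 215 CPM with HCC+ EVs, against 259, 250 and 235 CPM in the blank (-0.22 ± 0.06, adjusted p = 0.00248). HADHB had 82.6, 88.7 and 86.4 CPM with HCC+ EVs, against 108, 93.8 and 97.9 CPM in the blank (-0.22 ± 0.06, adjusted p = 0.00656). For both subunit genes the treated libraries lay below all blank libraries. PLIN2 had 43.2, 49.6 and 46.3 CPM with HCC+ EVs, against 38.7, 42.1 and 37.2 CPM in the blank. The groups did not overlap, but the lowest treated library was close to the highest blank library (0.24 ± 0.08, adjusted p = 0.0176). In all, 4 genes lay wholly below the blank and 1 wholly above it, where 19.6% and 20.3% of all tested genes did so.

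The 4 genes without a call averaged close to the blank. CPT1A had 164 ± 4.54 CPM with HCC+ EVs at 1.2 mg/mL and 160 ± 2.30 CPM in the blank (0.04 ± 0.06). ACADM averaged 59.0 ± 2.29 CPM with HCC+ EVs and 58.4 ± 4.81 CPM in the blank (0.01 ± 0.08). ACADVL had 191 ± 6.52 CPM with HCC+ EVs and 196 ± 17.6 CPM in the blank (-0.04 ± 0.06), and ACAA2 22.0 ± 0.869 CPM with HCC+ EVs and 21.1 ± 2.47 CPM in the blank (0.06 ± 0.09). A missed threshold does not show that these levels were equal.

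The smaller changes with HCC+ EVs rest on single libraries and on scaling. The call of HADHB was lost without HCC+ replicate 1 (adjusted p = 0.0538) or blank replicate 1 (0.0693), and that of PLIN2 without HCC+ replicate 2 (0.104), blank replicate 1 (0.053) or blank replicate 3 (0.0975). Fitted on these 6 libraries only, neither was called (0.0671 for HADHB, 0.0518 for PLIN2). With library totals as the scale, the all-gene median shifted by 0.12, which turned 3046 higher and 3398 lower genes into 4657 higher and 2069 lower. Under it HADHA and HADHB, at -0.10 each, were not called, and CPT1A, at 0.16, was called higher (adjusted p = 0.0485). With trends of GC content and gene length removed, HADHB had -0.12 and ACADVL, at -0.18, was called lower.

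At 1.2 mg/mL with HCC- EVs, 7 of the 9 genes fell and none rose, where 53.3% of all tested genes were called, 24.8% higher and 28.5% lower. CPT2 fell most, and ETFDH, ACADM, HADHA, HADHB, ACAA2 and ACADVL followed. CPT1A and PLIN2 did not pass. The median of the 9 genes was -0.53, beside 0.05 for all tested genes.

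CPT2 had 6.99, 8.91 and 7.07 CPM with HCC- EVs at 1.2 mg/mL, against 17.6, 19.3 and 16.7 CPM in the blank. The treated mean was 42.9% of the blank mean (-1.23 ± 0.10, adjusted p = 9.24e-12). ETFDH had 16.2, 13.7 and 14.1 CPM with HCC- EVs, against 25.0, 24.6 and 26.1 CPM in the blank (-0.78 ± 0.08, adjusted p = 2.55e-09). Every treated library was well below the lowest blank library for both genes. ACADM had 38.3, 35.9 and 31.7 CPM with HCC- EVs, against 61.9, 52.9 and 60.4 CPM in the blank (-0.73 ± 0.08, adjusted p = 2.47e-09). HADHA had 157, 161 and 143 CPM with HCC- EVs, against 259, 250 and 235 CPM in the blank (-0.69 ± 0.06, adjusted p = 4.8e-12). These groups did not overlap either, and blank replicate 2 was the lowest blank library for ACADM.

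HADHB averaged 69.2 ± 1.5 CPM with HCC- EVs at 1.2 mg/mL and 99.9 ± 7.34 CPM in the blank (-0.53 ± 0.06, adjusted p = 1.41e-08). ACAA2 had 16.4, 16.2 and 17.3 CPM with HCC- EVs, against 23.4, 21.5 and 18.5 CPM in the blank (-0.34 ± 0.09, adjusted p = 0.00131). ACADVL had 151, 164 and 153 CPM with HCC- EVs, against 182, 216 and 190 CPM in the blank (-0.33 ± 0.06, adjusted p = 3.97e-05). For all of these the treated libraries were lower throughout. PLIN2 had 31.6, 36.7 and 36.2 CPM with HCC- EVs, against 38.7, 42.1 and 37.2 CPM in the blank, without overlap but also without a call (-0.18 ± 0.08, adjusted p = 0.0565). CPT1A had 162, 164 and 158 CPM with HCC- EVs, against 162, 160 and 158 CPM in the blank, so the libraries interleave (0.01 ± 0.06). Counting PLIN2, 8 of the 9 genes lay wholly below the blank, where 28.0% of all tested genes did and 28.4% lay wholly above it.

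All 7 calls held when each library was left out in turn and with the GC content and length trends removed. PLIN2, at -0.18, passed with those trends removed (adjusted p = 0.0243) and, at -0.22, without blank replicate 3 (0.0332). With library totals as the scale, the all-gene median shifted by 0.28, which turned 4844 higher and 5574 lower genes into 8128 higher and 3097 lower. Under it 5 of the 9 genes fell and 1 rose: CPT2 had -0.94, ETFDH -0.50, ACADM -0.44, HADHA -0.41 and HADHB -0.25, while ACADVL (-0.05), ACAA2 (-0.06) and PLIN2 (0.11, against -0.18 with TMM factors) were not called and CPT1A, at 0.30, was called higher.

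**Figure D2:**
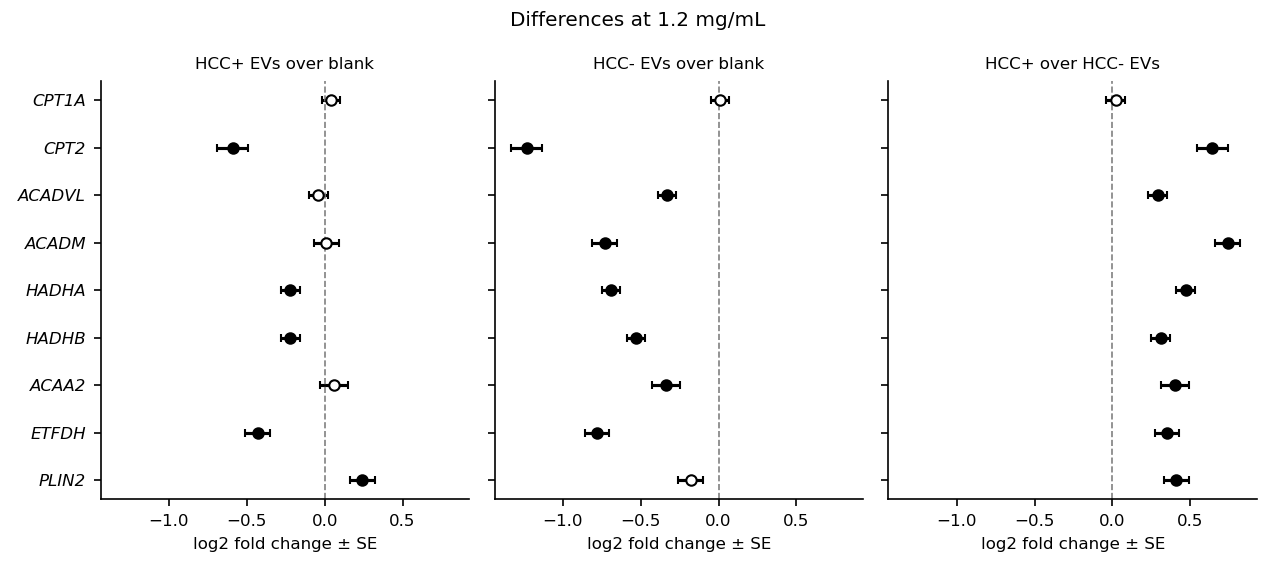
Log2 fold change ± SE of each gene at 1.2 mg/mL for HCC+ EVs over the blank, HCC- EVs over the blank, and HCC+ over HCC- EVs, from the same 9 libraries. Filled points passed at an adjusted p under 0.05, and CPT1A is open in all 3 panels.

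Between the sources at 1.2 mg/mL, 8 of the 9 genes were higher with HCC+ EVs than with HCC- EVs, and CPT1A did not pass. In this comparison 35.3% of all tested genes were called, 22.6% higher and 12.7% lower with HCC+ EVs. The fold changes of both comparisons with the blank use the same 3 blank libraries, whereas those between the sources use none of them. The SE and p in each comparison draw on the spread over all 21 libraries.

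ACADM had 56.3, 60.6 and 60.0 CPM with HCC+ EVs, against 38.3, 35.9 and 31.7 CPM with HCC- EVs, and showed the largest difference of the 9 (0.74 ± 0.08, adjusted p = 7.19e-09). CPT2 had 11.6, 12.0 and 12.1 CPM with HCC+ EVs, against 6.99, 8.91 and 7.07 CPM with HCC- EVs (0.64 ± 0.10, adjusted p = 8.77e-06). HADHA had 207, 217 and 215 CPM with HCC+ EVs, against 157, 161 and 143 CPM with HCC- EVs (0.47 ± 0.06, adjusted p = 5.91e-08). Libraries of the 2 sources were apart for each of these genes. PLIN2 had 43.2, 49.6 and 46.3 CPM with HCC+ EVs, against 31.6, 36.7 and 36.2 CPM with HCC- EVs (0.41 ± 0.08, adjusted p = 7.92e-05). ACAA2 (0.40 ± 0.09), ETFDH (0.35 ± 0.08), HADHB (0.31 ± 0.06) and ACADVL (0.29 ± 0.06) were higher by less. For all 8 genes every HCC+ library exceeded every HCC- library, where 26.0% of all tested genes did so and 20.6% were the other way round. CPT1A averaged 164 ± 4.54 CPM with HCC+ EVs and 162 ± 2.89 CPM with HCC- EVs (0.02 ± 0.06, adjusted p = 0.789).

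With library totals as the scale, the all-gene median shifted by -0.16, with 2342 higher and 4572 lower in place of 4411 and 2490. Under it 5 of the 8 calls held, and HADHB (0.15), ETFDH (0.18) and ACADVL (0.13) were not called. With the GC content and length trends removed, all 8 passed.

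Ratios of 2 genes within a library do not depend on scaling. The ratio of CPT2 to CPT1A counts was 0.0723 ± 0.00096 with HCC+ EVs at 1.2 mg/mL, 0.0473 ± 0.00607 with HCC- EVs at 1.2 mg/mL and 0.112 ± 0.00828 in the blank (SD, n = 3 each). The libraries spanned 0.0714 to 0.0733 with HCC+ EVs, 0.0431 to 0.0543 with HCC- EVs and 0.106 to 0.121 in the blank, so these ranges were apart. The ratio of PLIN2 to HADHA was 0.208 to 0.228 with HCC+ EVs at 1.2 mg/mL, 0.202 to 0.253 with HCC- EVs at 1.2 mg/mL and 0.15 to 0.168 in the blank. It was above the blank with both sources, which overlapped each other. It was also wholly above the blank with HCC- EVs at 0.048 mg/mL (0.176 to 0.188) and at 0.24 mg/mL (0.173 to 0.199). HADHA to HADHB, the subunit ratio, was 2.48 ± 0.0327 with HCC+ EVs at 1.2 mg/mL, 2.22 ± 0.0986 with HCC- EVs at 1.2 mg/mL and 2.49 ± 0.157 in the blank. Its HCC+ libraries, at 2.45 to 2.51, were among the blank libraries, whereas the HCC- libraries, at 2.11 to 2.28, were all below the blank libraries, at 2.40 to 2.67. ACADM to ACADVL was 0.310 ± 0.0199 with HCC+ EVs at 1.2 mg/mL, 0.227 ± 0.0243 with HCC- EVs at 1.2 mg/mL and 0.302 ± 0.0496 in the blank. With HCC- EVs at 1.2 mg/mL, at 0.207 to 0.254, it overlapped the blank, at 0.246 to 0.341, and it was lowest with HCC- EVs at 0.048 mg/mL, at 0.200 to 0.213. These pairs were chosen after the values were seen, and with 3 libraries against 3 they are given without a test.

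**Figure D3:**
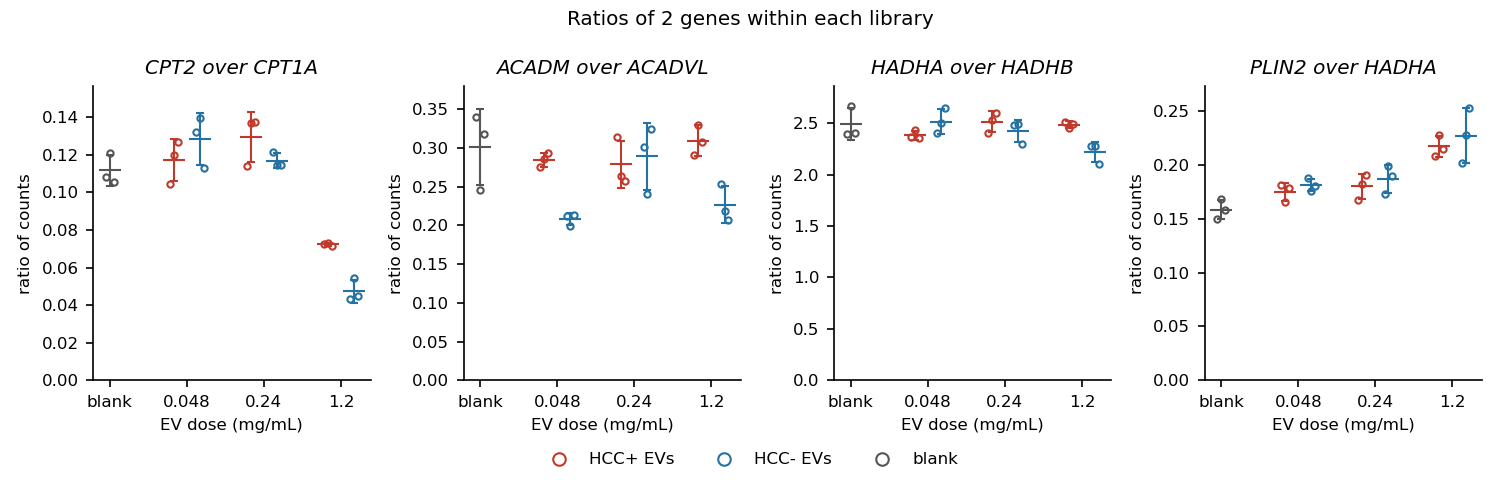
Ratio of the counts of 2 genes within each library (vertical axis, from 0) by EV dose in mg/mL, with 1 point per library and the mean ± SD of 3. CPT2 over CPT1A falls below the blank at 1.2 mg/mL with both sources, and PLIN2 over HADHA lies above it.

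At 0.24 mg/mL no gene of the 9 passed against the blank with either source, or between sources. Of all tested genes, 0.00511% passed with HCC+ EVs (1 gene) and 0.0% with HCC- EVs and between the sources. At an unadjusted p under 0.05 there were 1193 genes with HCC+ EVs, 905 with HCC- EVs and 462 between the sources, and 0 of the 9 genes in each. DESeq2 called 3 genes with HCC+ EVs, and 0 with HCC- EVs and between the sources. The 9 log2 changes spanned -0.11 (CPT1A) to 0.12 (ACADVL and PLIN2) with HCC+ EVs and -0.08 (HADHA) to 0.16 (PLIN2) with HCC- EVs. CPT2, the gene that changed most at the higher dose, had 17.8, 19.3 and 20.3 CPM with HCC+ EVs and 19.7, 18 and 17.5 CPM with HCC- EVs, within and around the blank values.

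At 0.048 mg/mL HCC+ EVs gave no call against the blank among the 9 genes or among all tested genes (0.0%, and 944 genes, none of the 9, at an unadjusted p under 0.05; DESeq2 called 1). HCC- EVs gave 3 calls, where 16.4% of all tested genes were called, 8.28% higher and 8.16% lower. ACADM fell, with 49.8, 46.5 and 49.4 CPM with HCC- EVs, against 61.9, 52.9 and 60.4 CPM in the blank (-0.27 ± 0.08, adjusted p = 0.0215). ETFDH fell, with 21.4, 20.7 and 20.9 CPM with HCC- EVs, against 25.0, 24.6 and 26.1 CPM in the blank (-0.27 ± 0.08, adjusted p = 0.0304). ACADVL rose, with 235, 233 and 231 CPM with HCC- EVs, against 182, 216 and 190 CPM in the blank (0.25 ± 0.06, adjusted p = 0.011). The libraries did not overlap in any of these, which was so for 13.9% of all tested genes below and 13.6% above the blank. With the GC content and length trends removed, none of the 3 was called and the calls over all genes went to 104, beside 3216 with no trend removed. The GC content of the longest annotated transcript was 41.0% for ACADM, 44.1% for ETFDH and 58.8% for ACADVL. Without blank replicate 1 or blank replicate 3 no gene of the 9 passed, and over all genes 1 and 12 did, beside 5726 without blank replicate 2. ETFDH was also not called without any 1 of the HCC- libraries (adjusted p = 0.0658 to 0.0991), and ACADM not without HCC- replicate 2 (0.0975).

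Between the sources at 0.048 mg/mL, ACADM alone passed, higher with HCC+ EVs, where 3.54% of all tested genes were called, 1.08% higher and 2.46% lower. It had 57.6, 60.3 and 59.9 CPM with HCC+ EVs, against 49.8, 46.5 and 49.4 CPM with HCC- EVs (0.29 ± 0.08, adjusted p = 0.0402). The call was lost whichever of the 6 libraries was left out (adjusted p = 0.06 to 0.171) and with the trends removed (0.269). Over all genes there were 693 calls, and 258 without HCC+ replicate 1, 3 without HCC+ replicate 2, 4 without HCC+ replicate 3, 2 without HCC- replicate 1, 3 without HCC- replicate 2 and 536 without HCC- replicate 3.

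The step between the higher doses was tested within each source. With HCC+ EVs, CPT2 (-0.69 ± 0.10), ETFDH (-0.35 ± 0.08) and HADHA (-0.15 ± 0.06, adjusted p = 0.0331) were lower at 1.2 than at 0.24 mg/mL, 3 of 9 genes, where 29.2% of all tested genes were called, 13.7% higher and 15.5% lower. HADHA kept its call without HCC+ 1.2 mg/mL replicate 2 but lost it without any other of the 6 libraries (adjusted p = 0.0616 to 0.136). Without HCC+ 0.24 mg/mL replicate 1, CPT1A was called higher (0.19, adjusted p = 0.0424) and ACADVL lower (-0.19, 0.0407). Of the 8 alternatives other than leaving out 1 library, 5 called CPT1A higher. Among them were RLE factors (0.16, adjusted p = 0.0448), DESeq2 (0.16, 0.0297) and the compared groups alone (0.15, 0.0356). ACADVL was called lower in 3 of the 8, at -0.23 with the GC content and length trends removed (adjusted p = 1.13e-05). HADHA was also not called with RLE factors (0.0507) or without the filter on low counts (0.133). With library totals as the scale, the all-gene median of this step shifted by 0.11 and calls over all genes were 4072 higher and 1794 lower, beside 2681 and 3023. Under it CPT1A (0.25, adjusted p = 0.00231) and PLIN2 (0.22, 0.0238) were called higher, 2 of the 9 genes were lower, and HADHA, at -0.05, was not called (0.541). With HCC- EVs, 8 of the 9 genes were lower at 1.2 than at 0.24 mg/mL, where 51.8% of all tested genes were called, 23.9% higher and 28.0% lower. These were all but CPT1A, from CPT2 at -1.27 ± 0.10 to PLIN2 at -0.33 ± 0.08 (adjusted p = 0.000503). PLIN2 averaged 34.8 ± 2.83 CPM with HCC- EVs at 1.2 mg/mL and had 41.3, 47.6 and 42.7 CPM in the libraries at 0.24 mg/mL. With library totals as the scale, the all-gene median of this step shifted by 0.26, with 7742 higher and 3110 lower in place of 4671 and 5468. Under it 5 of the 9 genes were lower and 1 was higher, CPT1A (0.30, adjusted p = 0.000174), while PLIN2 (-0.07, 0.418), ACADVL (-0.11, 0.125) and ACAA2 (-0.15, 0.138) were not called.

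The difference between the sources in this step was itself tested, and 7 of the 9 genes passed, all with a step that was less negative or more positive for HCC+ EVs. In that test 21.3% of all tested genes were called, 15.1% in this direction and 6.26% in the other. The step for ACADM was -0.00 ± 0.08 with HCC+ EVs and -0.71 ± 0.08 with HCC- EVs, a difference of 0.71 ± 0.11 (adjusted p = 1.67e-05). That for CPT2 differed by 0.58 ± 0.14, for HADHA by 0.45 ± 0.08, for PLIN2 by 0.45 ± 0.11, for ACAA2 by 0.42 ± 0.12, for ETFDH by 0.41 ± 0.12 and for HADHB by 0.34 ± 0.09. ACADVL (0.22 ± 0.09, adjusted p = 0.0753) and CPT1A (0.11 ± 0.09, adjusted p = 0.4) did not pass. With the GC content and length trends removed, ACADVL passed too (0.28, adjusted p = 0.000191), so that 8 of the 9 genes did. Over all genes there were then 3426 calls in this direction and 1716 in the other. Scaled to the total count alone, 4 of the 7 passed, with HADHB (0.19), ETFDH (0.25) and ACAA2 (0.27) lost, and without HCC+ 1.2 mg/mL replicate 2 ETFDH was not called (0.33, adjusted p = 0.0653). The step of 0.24 against 0.048 mg/mL gave 0 calls in edgeR and in DESeq2 among the 9 genes and all genes with HCC+ EVs (0.0%, and 523 genes, none of the 9, at an unadjusted p under 0.05). With HCC- EVs it gave ACADM (0.25 ± 0.08) higher and ACADVL (-0.21 ± 0.06) lower at 0.24 mg/mL, where 8.71% of all genes were called, 3.86% higher and 4.86% lower. Neither was called with the trends removed, and both kept their call only without HCC- 0.24 mg/mL replicate 2 (adjusted p = 0.0676 to 0.274 without any other library).

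**Figure D4:**
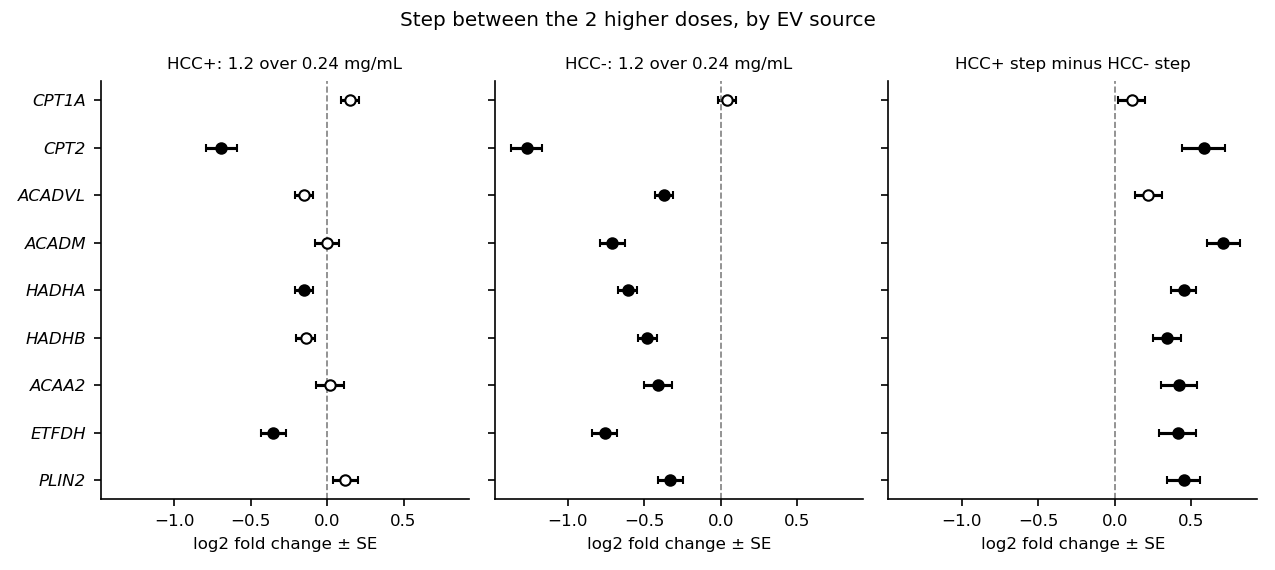
Log2 fold change ± SE of each gene for 1.2 over 0.24 mg/mL with HCC+ EVs and with HCC- EVs, and the HCC+ step minus the HCC- step. Filled points passed at an adjusted p under 0.05, 7 of 9 in the third panel.

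The other genes of the pathway were taken as 7 further lists with 90 distinct genes. Their counts at 1.2 mg/mL stand beside 33.0% of all tested genes called with HCC+ EVs, 53.3% with HCC- EVs and 35.3% between the sources, and nothing particular to a list is read from them. Of mitochondrial beta-oxidation enzymes outside the 9, 14 were tested. With HCC+ EVs at 1.2 mg/mL 6 of them fell and 0 rose against the blank (median -0.16), with HCC- EVs 12 fell and 0 rose (median -0.66), and 12 were higher with HCC+ than with HCC- EVs. ETFB, the subunit of the electron carrier that ETFDH oxidises, averaged 13.5 ± 0.556 CPM with HCC+ EVs, 6.85 ± 0.282 CPM with HCC- EVs and 19.7 ± 1.92 CPM in the blank. Its changes were -0.55 ± 0.10 with HCC+ EVs and -1.53 ± 0.10 with HCC- EVs, with 0.98 ± 0.10 between the sources. HADH, the dehydrogenase for short chains, fell by 0.64 with HCC+ EVs and by 1.18 with HCC- EVs on the log2 scale. ACAD9, which also serves complex I assembly, changed by -0.38 ± 0.06 with HCC+ EVs and -0.87 ± 0.06 with HCC- EVs. ACAT1 and ECHS1, a thiolase and a hydratase, were higher with HCC+ than with HCC- EVs by 0.72 ± 0.07 and 0.70 ± 0.07. Scaled to the total count alone, 4 fell and 2 rose with HCC+ EVs, 9 fell and 1 rose with HCC- EVs, and 9 were higher with HCC+ than with HCC- EVs. With the GC content and length trends removed, 8 fell and 2 rose with HCC+ EVs.

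Of 14 tested peroxisomal genes, 2 fell and 3 rose with HCC+ EVs at 1.2 mg/mL and 9 fell and 1 rose with HCC- EVs, and 8 were higher with HCC+ than with HCC- EVs. ACOX2, an oxidase of branched chains and bile acid precursors, averaged 8.02 ± 0.423 CPM with HCC+ EVs, 3.54 ± 0.758 CPM with HCC- EVs and 11 ± 1.35 CPM in the blank (-0.46 ± 0.13 and -1.64 ± 0.13 over the blank, 1.18 ± 0.13 between the sources). SCP2 (0.72 ± 0.09) and ABCD3, a peroxisomal transporter (0.60 ± 0.09), were higher with HCC+ than with HCC- EVs. ABCD2, another peroxisomal transporter, had 38 counts in the 3 HCC+ libraries and 2 in the 3 blank libraries, a ratio of 14.6 after scaling (exact 95% interval 3.78 to 125, which covers counting error only). Its call was lost without blank replicate 1 (adjusted p = 0.0504) or blank replicate 2 (0.0577).

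Of 10 tested genes of activation and the carnitine shuttle, 3 rose and 1 fell with HCC+ EVs at 1.2 mg/mL, 2 rose and 4 fell with HCC- EVs, and 5 were higher with HCC+ than with HCC- EVs. ACSL1, a long-chain acyl-CoA synthetase, averaged 73.6 ± 2.41 CPM with HCC+ EVs, 44.9 ± 2.45 CPM with HCC- EVs and 40.8 ± 0.344 CPM in the blank. It rose with HCC+ EVs (0.85 ± 0.08) and was not called with HCC- EVs (0.14 ± 0.08). ACSL5 fell with both (-0.20 ± 0.05 with HCC+ EVs, -0.64 ± 0.05 with HCC- EVs), and ACSL3 with HCC- EVs (-0.41 ± 0.07; -0.14 ± 0.07 with HCC+ EVs, not called). CRAT, which makes acetylcarnitine, averaged 35.8 ± 2.29 CPM with HCC+ EVs, 20.4 ± 1.43 CPM with HCC- EVs and 35.1 ± 4.80 CPM in the blank (-0.79 ± 0.09 for HCC- EVs over the blank). CPT1C, the neuronal relative of CPT1A, rose by 0.61 ± 0.14 with HCC+ EVs and 0.56 ± 0.14 with HCC- EVs. SLC25A20, the carnitine carrier between CPT1A and CPT2, rose by 0.44 ± 0.09 with HCC+ EVs and 0.34 ± 0.09 with HCC- EVs, and neither gene was called between the sources (0.05 and 0.10). With the total count alone the counts with HCC- EVs were 5 higher and 3 lower.

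Of 14 tested lipid droplet genes other than PLIN2, 4 rose and 1 fell with HCC+ EVs at 1.2 mg/mL, 6 rose and 2 fell with HCC- EVs, and 3 were higher and 2 lower with HCC+ than with HCC- EVs. PLIN3, a perilipin present in most tissues, averaged 219 ± 8.73 CPM with HCC+ EVs, 190 ± 11.4 CPM with HCC- EVs and 176 ± 15.4 CPM in the blank, and rose with HCC+ EVs (0.31 ± 0.07). PLIN4 rose with both (0.52 ± 0.16 with HCC+ EVs, 0.83 ± 0.16 with HCC- EVs), as did LDAF1, a partner of seipin (0.44 ± 0.10 with HCC+ EVs, 0.62 ± 0.10 with HCC- EVs), and DGAT1, which completes triglyceride (0.38 ± 0.08 with HCC+ EVs, 0.53 ± 0.08 with HCC- EVs). HILPDA, an inhibitor of lipolysis, was higher with HCC+ than with HCC- EVs (0.46 ± 0.12), and so was SOAT1, which esterifies cholesterol (0.30 ± 0.08). BSCL2, which encodes seipin, was lower with HCC+ than with HCC- EVs (-0.82 ± 0.20). Of 7 tested lipolysis genes, 4 rose and 1 fell with HCC+ EVs and 1 rose and 1 fell with HCC- EVs. MGLL, the monoglyceride lipase, rose with HCC+ EVs (0.63 ± 0.14) and LIPA, the lysosomal lipase, too (0.43 ± 0.10). PNPLA4 fell with both (-0.46 ± 0.10 with HCC+ EVs, -0.73 ± 0.10 with HCC- EVs), and PNPLA3 rose with both (0.55 ± 0.13 with HCC+ EVs, 0.53 ± 0.13 with HCC- EVs). With the total count alone 8 droplet genes rose and 1 fell with HCC- EVs, 1 was higher and 5 were lower with HCC+ than with HCC- EVs, and 5 lipolysis genes rose with HCC- EVs.

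**Figure D5:**
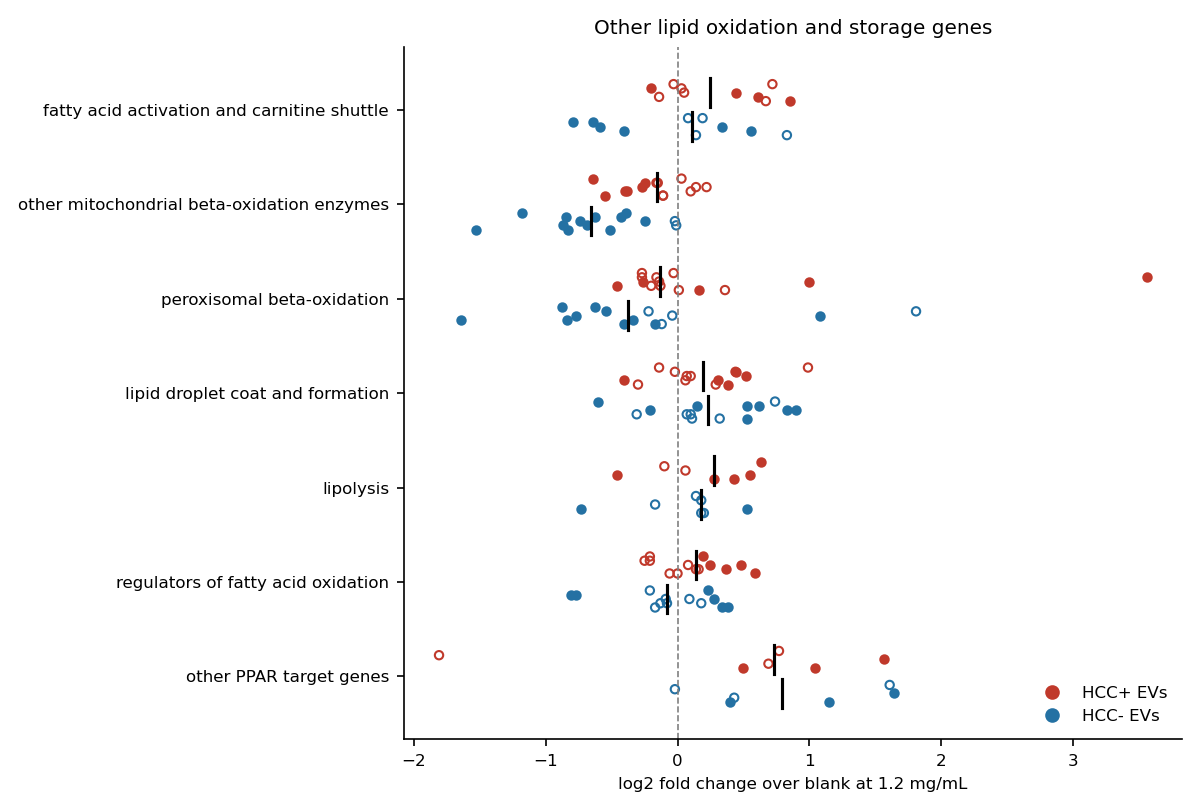
Log2 fold change over the blank at 1.2 mg/mL of the tested genes of 7 lists, HCC+ EVs (red) above HCC- EVs (blue), with the median as a black bar. Filled points passed at an adjusted p under 0.05; the point at the far right is ABCD2, whose fitted value rests on 2 counts in the blank. Mitochondrial enzymes lie mostly left of 0 with HCC- EVs.

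Of 13 tested regulators of fatty acid oxidation, 5 rose and 0 fell with HCC+ EVs at 1.2 mg/mL, 4 rose and 2 fell with HCC- EVs, and 7 were higher and 1 lower with HCC+ than with HCC- EVs. PPARA, the fasting-induced receptor that turns on this pathway in liver, averaged 33.6 ± 3.66 CPM with HCC+ EVs, 28.3 ± 0.866 CPM with HCC- EVs and 22.4 ± 3.97 CPM in the blank. It rose by 0.59 ± 0.10 with HCC+ EVs and 0.34 ± 0.10 with HCC- EVs. TFEB (0.48 ± 0.15) and PPARG (0.25 ± 0.08) rose with HCC+ EVs. The call of TFEB was lost without HCC+ replicate 3 (adjusted p = 0.0826) or blank replicate 3 (0.149), and that of PPARG without blank replicate 2 (0.0501) or blank replicate 3 (0.0816). The coactivator gene PPARGC1B (-0.81 ± 0.10) and PRKAA1, a catalytic subunit of AMPK (-0.77 ± 0.10), fell with HCC- EVs, and both were higher with HCC+ than with HCC- EVs (0.57 ± 0.10 and 0.56 ± 0.10). NCOR1, a corepressor, rose with HCC- EVs (0.38 ± 0.07). Of 6 tested further PPAR targets, 3 rose and 0 fell with each source, and 0 differed between the sources. PDK4, which restrains glucose oxidation, averaged 5.17 ± 0.485 CPM with HCC+ EVs, 5.60 ± 0.292 CPM with HCC- EVs and 2.54 ± 0.501 CPM in the blank. CREB3L3 averaged 2.50 ± 0.124 CPM with HCC+ EVs, 2.62 ± 0.299 CPM with HCC- EVs and 0.832 ± 0.106 CPM in the blank, and UCP2 rose by 0.50 ± 0.13 with HCC+ EVs and by 0.40 ± 0.13 with HCC- EVs, the second not without blank replicate 3 (adjusted p = 0.0876). With the GC content and length trends removed, 2 regulators rose and 2 fell with HCC+ EVs and 1 rose and 6 fell with HCC- EVs. With the total count alone 8 regulators rose and 2 fell with HCC- EVs, and 3 were higher and 3 lower with HCC+ than with HCC- EVs.

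Likeness was measured as the root mean square difference of centred log2 group means over the 7 groups, among 12263 genes whose mean log2 CPM was 1 or more. Genes nearest to CPT2 were MMAB (0.031) and ANO1 (0.041), to ACADM SLF2 and SGPP1 (0.025 each), to ETFDH RPL22 (0.025) and ALG8 (0.029). HADHA was nearest to FECH (0.020) and CS (0.023), and HADHB to MRPS27 (0.024) and STT3A (0.025). Those nearest to PLIN2 were CDH3 (0.029) and RHPN2 (0.036), to ACAA2 NR5A2 (0.017) and SUMO3 (0.023), to ACADVL SRSF9 (0.020) and CAPG (0.021), and to CPT1A PARD3 (0.019) and TGFBRAP1 (0.025). HADHA and HADHB were each other's nearest among the 9 genes (0.060), at rank 218 for HADHA and 332 for HADHB among all genes compared. PLIN2 was nearest to ACAA2 among the 9 (0.067). These are descriptions over 7 points that share their 21 libraries.

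The 6 libraries at 1.2 mg/mL stood apart from the other 15 on the first principal component (34.6% of the variance). Summed levels of 10 epithelial and colorectal markers were 4089 to 4411 CPM with HCC+ EVs at 1.2 mg/mL, 3568 to 3865 CPM with HCC- EVs at 1.2 mg/mL and 3779 to 4604 CPM in the blank, with CDX1 below 0.1 CPM throughout. Of 8 tested, 1 rose and 0 fell with HCC+ EVs, and 2 rose and 3 fell with HCC- EVs. The calls of each marker list at 1.2 mg/mL stand beside those of all tested genes. Of these 15.6% rose and 17.4% fell with HCC+ EVs, and 24.8% rose and 28.5% fell with HCC- EVs. Of 5 adipocyte markers ADIPOQ was at 0 in all libraries, and their sum was at most 1.05 CPM. Leukocyte markers summed to 3.36 to 4.70 CPM with HCC+ EVs at 1.2 mg/mL, 5.30 to 7.12 CPM with HCC- EVs at 1.2 mg/mL and 1.35 to 1.63 CPM in the blank, where S100A8 and S100A9 were at 0 in all libraries. Of 4 tested, 4 rose with HCC+ EVs and 3 with HCC- EVs, beside 15.6% and 24.8% of all tested genes. Endothelial and fibroblast markers summed to 24.8 to 34.5 CPM with HCC+ EVs at 1.2 mg/mL, 36.1 to 41.3 CPM with HCC- EVs at 1.2 mg/mL and 15.3 to 18.7 CPM in the blank, and 3 of 4 tested rose with each. Platelet markers summed to 20.4 to 22.1 CPM with HCC+ EVs at 1.2 mg/mL, 13.3 to 16.4 CPM with HCC- EVs at 1.2 mg/mL and 27.5 to 31.7 CPM in the blank, with PPBP and PF4 at 0 in all libraries. Among 4 tested platelet markers, 1 fell with HCC+ EVs and 2 with HCC- EVs, and 0 rose with either. Of 4 genes read for RNA quality, NEAT1, a nuclear RNA, rose with HCC+ EVs (0.96 ± 0.09) and HCC- EVs (1.71 ± 0.09), and MT-ND1, a mitochondrial gene, fell with HCC- EVs (-0.25 ± 0.06). MALAT1 and MT-CO1 were not called, and the sums of the 4 were 17620 to 18860 CPM with HCC+ EVs at 1.2 mg/mL, 16340 to 17470 CPM with HCC- EVs at 1.2 mg/mL and 16370 to 18520 CPM in the blank. Hepatocyte markers summed to 3.21 to 3.63 CPM with HCC+ EVs at 1.2 mg/mL, 2.43 to 3.58 CPM with HCC- EVs at 1.2 mg/mL and 2.13 to 2.60 CPM in the blank, with FGA at 0, and SERPINA1, 1 of 3 tested, rose with HCC+ EVs (0.58 ± 0.22, adjusted p = 0.0417). Erythroid markers summed to 0.389 to 0.936 CPM with HCC+ EVs at 1.2 mg/mL, 0.371 to 0.968 CPM with HCC- EVs at 1.2 mg/mL and 0.0677 to 0.200 CPM in the blank, without overlap, and 1 of 2 tested, SLC4A1, rose with HCC- EVs. The part of these in the changes of the 9 genes was not tested.

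Exons of other genes overlap some of the 9 in the annotation. For ETFDH 497 exon bases, 11.1%, also belong to PPID and 131, 2.9%, to C4orf46, both on the opposite strand. In all libraries together PPID had 81232 counts and C4orf46 28972, beside 21245 for ETFDH. For CPT2 1151 bases, 11.4%, belong to an antisense gene with 53 counts. Another 99 bases of CPT2, 1.0%, belong to CZIB on the opposite strand, with 25749 counts beside 15364 for CPT2. For ACADM 157 bases, 3.3%, belong to RABGGTB on the same strand, with 113198 counts beside 52657 for ACADM. For ACAA2 385 bases, 7.8%, belong to a gene on the same strand with 0 counts. For ACADVL 49 bases, 1.0%, belong to DLG4 on the opposite strand, with 7071 counts beside 195728 for ACADVL. Whether counting used strand is not stated, so reads in the stretches shared with the opposite strand cannot be told apart. In the same-strand stretches of ACADM and ACAA2, strand would not separate them. Copies named after 3 of the genes had few counts, at most 184 over all libraries, for HADHAP1.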

How the data were processed

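The authors deposited a table of raw counts with 65065 Ensembl genes (GRCh38). The submitters' processing notes name cutadapt 3.4, HISAT2 2.2.1 and featureCounts 2.0.1. No label states the annotation release, or how strand and multimapping reads were handled. Of deposited counts from 1 to 10, 57.9 to 59.7% were even, against 49.4 to 50.9% of counts over 500; how read pairs were counted is not stated. Libraries held 31.22 to 64.01 M counts, which limits precision for genes with few.

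Symbols came from a gene name table, for 58472 identifiers. Counts were fitted in edgeR 4.0.16 (R 4.3.3; TMM, filterByExpr, robust quasi-likelihood, 7 group means, 14 residual degrees of freedom, 2-sided), with genes called at a Benjamini-Hochberg adjusted p under 0.05 per comparison, over 19556 genes. The SE was taken as log2 fold change divided by the square root of the F statistic. CPM uses TMM factors, and per-length levels use the exon length in the deposited table. The method was tested on simulated data.

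The 9 genes and the lists were chosen with earlier results of these data known. From each other list the text names up to 3 called genes with the smallest p in each comparison at 1.2 mg/mL, with the counts of called genes, and for likeness the 2 nearest genes; some items are not reported here. Alternatives were RLE factors, total count alone, all genes with any count, DESeq2 1.42.0, a replicate block, trends with GC content (known for 99.7% of tested genes) and length removed, a fit on the compared groups alone, and leaving out 1 library at a time. Promoter windows came from RefSeq (GRCh38.p14). Figures used Python 3.11.15 and matplotlib 3.10.9.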

Additional observations from a re-analysis of the deposited data

Results flagged for a closer look

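In 7 of the 9 genes the step from 0.24 to 1.2 mg/mL differed between the EV sources, by the test of that difference in edgeR. That test called 21.3% of all tested genes, 15.1% with a difference above 0, as in these 7, and 6.26% below 0. The differences, the HCC+ step minus the HCC- step on the log2 scale, were 0.71 for ACADM, 0.58 for CPT2, 0.45 for HADHA, 0.45 for PLIN2, 0.42 for ACAA2, 0.41 for ETFDH and 0.34 for HADHB. Adjusted p-values ran from 1.67e-05 for ACADM to 0.012 for ETFDH. With the total count alone HADHB (adjusted p = 0.118), ETFDH (0.143) and ACAA2 (0.11) were not called. ETFDH was also not called without HCC+ 1.2 mg/mL replicate 2 (0.0653). With the GC content and length trends removed, ACADVL was called as well (0.28, adjusted p = 0.000191). For PLIN2 the step was 0.12 ± 0.08 with HCC+ EVs and -0.33 ± 0.08 with HCC- EVs, and for ACAA2 it was 0.02 ± 0.09 with HCC+ EVs and -0.41 ± 0.09 with HCC- EVs. Each group holds 3 libraries, so no test was made for a library standing apart within its group. Libraries were only left out 1 at a time.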

How the results depend on the processing

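No call of the 9 genes changed direction under any alternative run. Over all fits that left out 1 library, counted once for each gene, comparison and library left out, 770 results kept their side of the threshold, 37 lost a call and 3 gained one. Apart from leaving out 1 library, each alternative was run for every gene and comparison. Of 126 pairs of a gene and a comparison, the number on the same side of the threshold was 105 with the total count alone, 116 with GC content and length trends removed, 118 with only the groups compared, 122 with DESeq2 and 124 each with RLE factors and without the filter. The causes were not tested.

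Calls among the 9 genes moved as follows. For HCC+ 1.2 mg/mL against the blank 5 became 3 with only the groups compared and 3 to 5 with 1 library left out. For HCC- 0.048 mg/mL against the blank 3 became 0 with the trends removed and 0 to 3 with 1 library left out. For HCC+ against HCC- at 0.048 mg/mL 1 became 0 with the trends removed, 3 with DESeq2, 3 with only the groups compared, and 0 with any library left out. For HCC- 0.24 against 0.048 mg/mL 2 became 0 with the trends removed and 0 to 2 with 1 library left out. For HCC+ 1.2 against 0.24 mg/mL 3 became 5 with only the groups compared. With the total count alone 8 became 5 for HCC+ against HCC- at 1.2 mg/mL, and 7 became 4 for the difference of the steps. With the trends removed 7 became 8 for the difference of the steps.

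Over all genes, calls for HCC+ 0.24 mg/mL against the blank were 1, 25 without the filter, 6 with the trends removed, 3 with DESeq2, 2 with only the groups compared and 1 to 21 with 1 library left out. For HCC+ 0.048 mg/mL against the blank they were 0, 1 each with the total count alone, with the trends removed and with DESeq2, 3 without the filter and 0 to 1 with 1 library left out. For HCC- 0.24 mg/mL against the blank they were 0, 9 without the filter, 2 with the trends removed and 0 to 1 with 1 library left out. For HCC- 0.048 mg/mL against the blank they were 3216, 104 with the trends removed, 1976 with only the groups compared and 1 to 5726 with 1 library left out. For HCC+ against HCC- at 0.24 mg/mL they were 0 and 1 with the trends removed. For HCC+ against HCC- at 0.048 mg/mL they were 693, 1483 without the filter, 39 with the trends removed, 2109 with DESeq2, 3641 with only the groups compared and 2 to 536 with 1 library left out. For HCC- 0.24 against 0.048 mg/mL they were 1704, 110 with the trends removed, 3100 with DESeq2, 3071 with only the groups compared and 2 to 3124 with 1 library left out.

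Libraries with the same replicate number showed little likeness of residuals: of 63 such pairs, 1 had a correlation over 0.1 (range -0.095 to 0.115). Pairs with different numbers were not compared, so this does not settle whether libraries were paired. With the replicate block, 125 of the 126 pairs were as before, PLIN2 for HCC- 1.2 mg/mL against the blank was called (adjusted p = 0.0437), and calls over all genes for HCC+ against HCC- at 0.048 mg/mL were 1091. With the replicate block and the trends removed together, calls over all genes were 10 for HCC+ 0.24, 1 for HCC+ 0.048, 2 for HCC- 0.24 and 142 for HCC- 0.048 mg/mL against the blank, 1 and 67 for HCC+ against HCC- at 0.24 and 0.048 mg/mL, and 165 for HCC- 0.24 against 0.048 mg/mL. Calls among the 9 genes were 0 for HCC- 0.048 mg/mL against the blank, 0 for HCC+ against HCC- at 0.048 mg/mL, 0 for HCC- 0.24 against 0.048 mg/mL and 5 for HCC+ 1.2 against 0.24 mg/mL.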
